A study of Mus musculus with 884 samples.

Results

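The replication timing of 8 naive pluripotency factor loci was followed through mouse embryonic stem cell differentiation by single-cell Repli-seq. The loci were those of Klf4, Klf2, Klf5, Esrrb, Tbx3, Tfcp2l1, Prdm14 and Nr5a2, chosen by name from their positions on mm9 and extended by 400 kb on either side. They covered 92 of the 30890 autosomal bins of 80 kb, of which 12 held the genes and 80 the flanks. In the assay a cell is sorted by DNA content, its genome is amplified and sequenced, and each bin is called replicated or not replicated; the share of replicated bins is the replication score of the cell and gives its place in S phase.

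The series held 884 single cells, of which 805 were S-phase and 72 were G1 cells with a usable state. Epiblast stem cells (EpiSCs), a female C57BL6 line in Activin/FGF medium, stand for the primed state. CBMS1 embryonic stem cells, a female line from a CBA/MsM cross, were taken in 2i/LIF (d0), as epiblast-like cells (d2), and after 3, 4, 5, 6 and 7 days (d3 to d7), with aggregates formed from d2 onwards in medium without added factors; per the labels' protocols this route gives neurectoderm. EpiSCs and CBMS1 cells differ in strain as well as state, and the 2 cannot be told apart. No label named separate cultures, so each state counted as 1 sample. No test was run, and every interval below is an exact Clopper-Pearson 95% interval over cells that covers counting error only. Beside a count of 0 cells, the limit given is instead 3 counts over the number of cells, which is somewhat below the exact upper bound. The deposited autosomal calls do not separate the parental alleles, and they hold no expression values, so the labelled cell types were not checked against markers.

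Naive pluripotency is the state of the preimplantation epiblast, held in culture by 2i/LIF, and it gives way to a formative and then a primed state before lineage choice. The 8 genes encode DNA-binding factors of the network that keeps the naive state. Genes in open, active chromatin of mammalian cells tend to replicate early in S phase, while closed chromatin at the nuclear periphery tends to replicate late. Timing is set over domains far longer than a gene, so a gene usually shares the timing of its neighbours.

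The Krüppel-like factors Klf2, Klf4 and Klf5 are zinc-finger activators with overlapping roles in self-renewal. The Klf4 bin was chr4:55520001-55600000, the Klf2 bin chr8:74800001-74880000 and the Klf5 bin chr14:99680001-99760000 (mm9 throughout). Esrrb, at chr12:87680001-87920000, and Nr5a2, at chr1:138720001-138880000, encode orphan nuclear receptors. Tbx3, at chr5:120080001-120160000, is a T-box factor, and Tfcp2l1, at chr1:120480001-120640000, is a CP2-family factor downstream of LIF. Prdm14, at chr1:13040001-13120000, is a PR-domain protein that holds back FGF signalling and DNA methylation. In the RefSeq gene order, the nearest coding neighbours were Rad23b and Actl7b for Klf4, Ap1m1 and Eps15l1 for Klf2, Pibf1 and Klf12 for Klf5, Gpatch2l and Vash1 for Esrrb, Med13l and Tbx5 for Tbx3, Clasp1 and Gli2 for Tfcp2l1, Slco5a1 and Ncoa2 for Prdm14, and Zfp281 and Ptprc for Nr5a2.

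RefSeq promoters (GRCm38.p6, 250 bases before to 50 after the start) were matched for 5 of the 8 genes. The promoters of 3 loci are shown because they took different courses below. Klf2 had much the same early-S share at d7 as at d0. Klf4 was lower at d7 in early S and stood beside a flank that was later in mid S. The early-S share of Tfcp2l1 fell further than that of Klf4. Capitals mark each CG dinucleotide, which reads the same on both strands.
Klf2, chr8:72318812-72319111, plus strand: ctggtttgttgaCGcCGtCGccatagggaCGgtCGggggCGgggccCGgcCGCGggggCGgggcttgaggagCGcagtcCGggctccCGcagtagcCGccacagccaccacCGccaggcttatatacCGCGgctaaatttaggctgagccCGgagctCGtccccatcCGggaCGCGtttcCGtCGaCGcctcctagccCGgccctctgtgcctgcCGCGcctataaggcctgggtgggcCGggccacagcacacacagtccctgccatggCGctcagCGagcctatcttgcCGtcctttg
Klf4, chr4:55532426-55532725, minus strand: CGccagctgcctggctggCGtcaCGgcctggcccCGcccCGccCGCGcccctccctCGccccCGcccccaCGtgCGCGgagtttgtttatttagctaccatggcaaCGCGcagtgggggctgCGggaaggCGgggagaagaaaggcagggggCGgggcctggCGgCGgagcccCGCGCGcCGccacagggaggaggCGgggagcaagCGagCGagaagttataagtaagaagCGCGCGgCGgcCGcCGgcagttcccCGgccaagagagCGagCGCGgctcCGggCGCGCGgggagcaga
Tfcp2l1, chr1:118627695-118627994, plus strand: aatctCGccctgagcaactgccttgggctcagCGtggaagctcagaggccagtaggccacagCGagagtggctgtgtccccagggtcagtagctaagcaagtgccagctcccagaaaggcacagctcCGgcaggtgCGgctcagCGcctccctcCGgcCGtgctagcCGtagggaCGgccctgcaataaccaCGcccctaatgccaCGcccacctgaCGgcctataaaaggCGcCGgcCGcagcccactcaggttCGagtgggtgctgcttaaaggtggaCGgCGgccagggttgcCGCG
The Klf4 promoter held 40 CG dinucleotides, a number reached by 3.91% of the 32851 RefSeq promoters of this length. The Klf2 promoter held 32, reached by 9.52%, and that of Tfcp2l1 held 21, reached by 24.8%, against a median of 7 over all promoters. An 80 kb call does not resolve a stretch of 300 bases, so these counts describe the genes and were not set against the timing.

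In mid S phase, at scores of 40 to 70%, all 8 loci were replicated in nearly every d0 cell. The lowest share at d0 was 94.7% (Esrrb, 54 of 57 cells) and the highest 96.6% (Klf4, Klf5 and Prdm14, 57 of 59 cells each), while the mean over all bins was 56.5%. The naive loci thus stood among the early part of the genome at d0, where 43.1% of all bins had a share of 80% or more. The d0 shortfall came mostly from 3 of the 59 cells, which departed from the mean profile (an area under the curve of less than 0.8 for their calls against it) and which held 17 of the 20 unreplicated calls. Without them, Klf5 for example was replicated in 56 of 56 d0 cells.

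By the end of the differentiation the loci were still mostly replicated by mid S, with Klf5 the exception closest to the size rule of 0.3. At d7 the gene bin of Klf5 was replicated in 70 of 101 mid-S cells (69.3%, interval 59.3 to 78.1%), against 57 of 59 at d0 (96.6%, interval 88.3 to 99.6%), a difference of -27.3 points. No locus passed the size rule in either direction between d7 and d0, while 7.71% of all bins were later and 7.75% earlier by that rule. Among bins at 80% or more in d0, the class in which all 8 loci lie and which can only become later by this rule, 9.74% were later. Leaving out the 7 mid-S cells off the mean profile, 3 of them at d7 and 3 at d0, put Klf5 past the rule, with 67 of 98 cells at d7 against 56 of 56 at d0. Klf5 also passed with cells matched one to one in score, at 66.1% in d7 against 96.6% in d0 (59 cells each).

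The remaining loci differed less in mid S. Tfcp2l1 was replicated in 83 of 100 cells at d7 (83%) and in 56 of 59 at d0 (94.9%). Klf4 was replicated in 87 of 100 cells at d7 (87%) and in 57 of 59 at d0 (96.6%). Nr5a2, Prdm14 and Tbx3 lay between 89.1 and 93.1% at d7. Esrrb and Klf2 were each replicated in 98 of 99 d7 cells, the highest shares of the 8 at d7.

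In EpiSCs the mid-S picture was similar. Klf5 was again lowest, with 19 of 26 cells replicated (73.1%, interval 52.2 to 88.4%), and Klf4 and Tfcp2l1 followed with 23 of 26 each (88.5%). Klf2, Esrrb and Nr5a2 were replicated in all 26 cells. No locus passed the rule between EpiSCs and d0, where 6.34% of all bins were later and 7.36% earlier, and 6.74% of those early at d0 were later. None passed between EpiSCs and d7, where 4.9% were later and 5.74% earlier, and 3.36% of those early at d7 were later. The comparisons with d0 share the same d0 cells.

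The days between gave the lowest mid-S values, in few cells. Their mean scores in mid S, from 52.3% at d2 to 55.6% at d5, lay below those of d0 (56.3%) and d7 (56.4%). Cells of d3 to d6 were not matched in score. Klf4 was replicated in 57 of 59 cells at d0, 27 of 35 at d2, 8 of 13 at d3, 16 of 18 at d4, 18 of 20 at d5, 18 of 21 at d6 and 87 of 100 at d7. Klf5 was replicated in 57 of 59 cells at d0, 29 of 35 at d2, 9 of 13 at d3, 13 of 18 at d4, 18 of 20 at d5, 12 of 21 at d6 and 70 of 101 at d7. Its d6 value of 57.1% (interval 34 to 78.2%) was the lowest share of any of the 8 loci in mid S. Against d0, only Klf4 at d3 (-35.1 points) and Klf5 at d6 (-39.5 points) passed 0.3 on any day among these gene shares, beside 8.79% of all bins later and 5.06% earlier at d3, and 8.81% later and 6.11% earlier at d6. No locus passed at d2, where 6.98% of all bins were later and 1.54% earlier, and 5.39% of those early at d0 were later. None passed at d4, where 7.02% of bins were later and 3.23% earlier, or at d5, where 6.15% were later and 4.4% earlier. For d3 to d6 no share was taken among the bins early at d0.

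**Figure D1:**
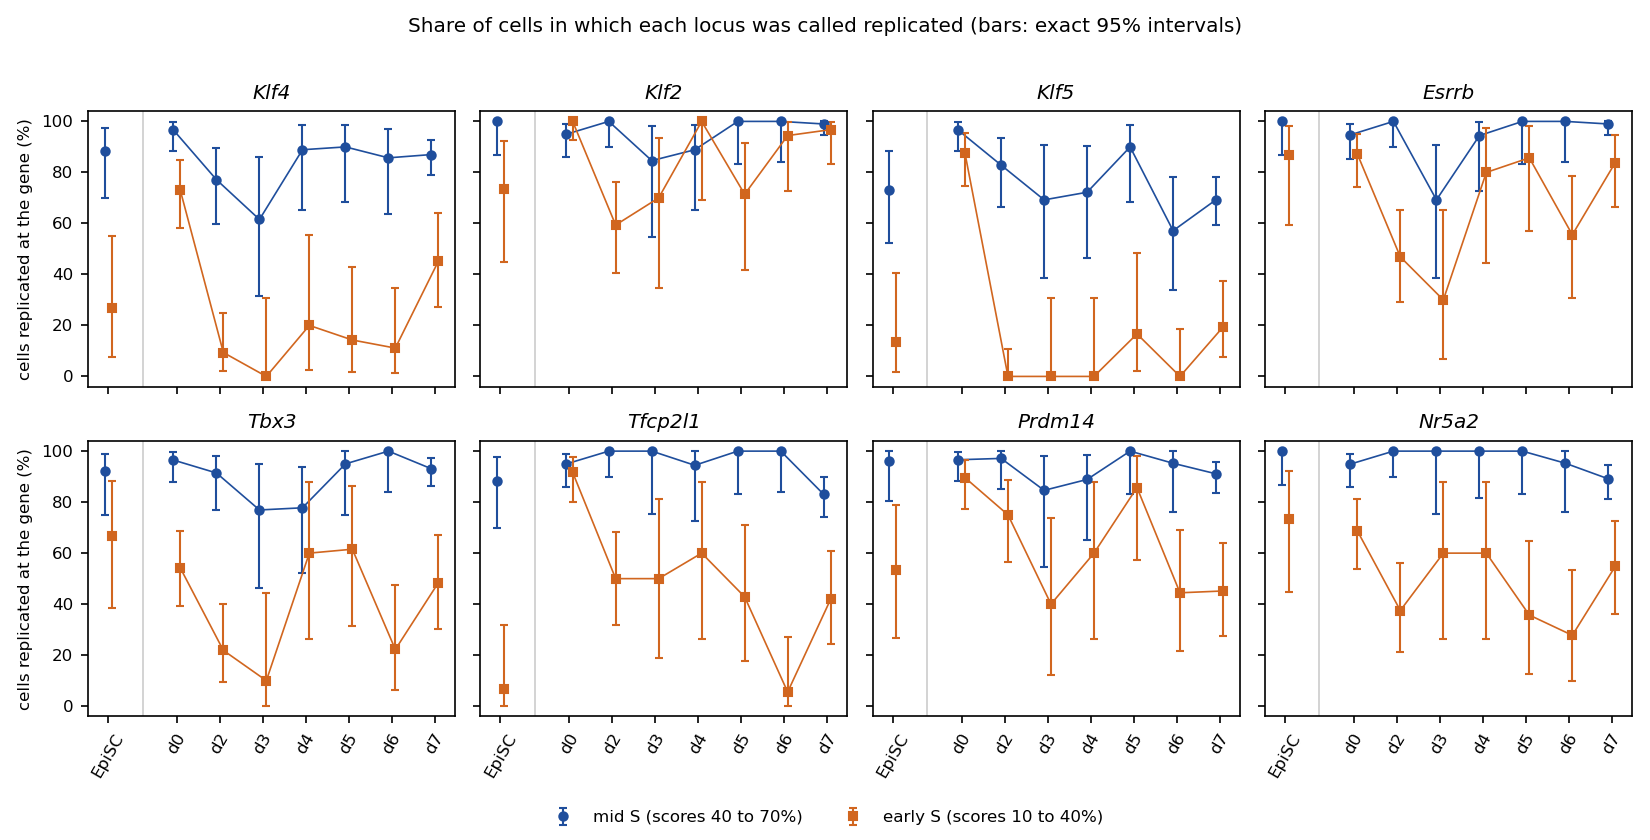
Percentage of cells (vertical axis) in which each locus was called replicated, by state (horizontal axis), in mid S (circles) and early S (squares), with exact 95% intervals; lines join the days. In mid S most loci stayed high and Klf5 reached 69.3% at d7; in early S the same locus stood at 19.4% at d7 and 87.5% at d0.

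Mid-S cells can say little about loci that are replicated long before mid S. The loci were therefore also compared in early S, at scores of 10 to 40%, a choice made after seeing that the mid-S shares were near their ceiling. The EpiSCs gave 15 such cells, d0 48, d2 32, d3 10, d4 10, d5 14, d6 18 and d7 31. Their mean scores lay between 23.5% (d6) and 28.8% (d5). Cells of d3 to d6 were not matched in score to those of another state. The part of the score in the order of these days was not tested.

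Klf5 showed the largest early-S difference from d0 of the 8 loci on each later day, while in EpiSCs that of Tfcp2l1 was larger (-85 points against -74.2 points). Klf5 was replicated in 42 of 48 early-S cells at d0 (87.5%, interval 74.75 to 95.27%), in 0 of 32 at d2, which allows a share of up to 9.38%, in 0 of 10 at d3 and at d4, in 2 of 12 at d5, in 0 of 18 at d6, which allows up to 16.7%, and in 6 of 31 at d7 (19.4%, interval 7.45 to 37.5%). In EpiSCs it was replicated in 2 of 15 cells (13.3%). The d0 interval overlapped none of the intervals of later days or of EpiSCs.

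Tfcp2l1 was lower on every later day than at d0, and lowest at d6. It was replicated in 44 of 48 early-S cells at d0, 16 of 32 at d2, 5 of 10 at d3, 6 of 10 at d4, 6 of 14 at d5, 1 of 18 at d6 and 13 of 31 at d7. In EpiSCs the number was 1 of 15 (6.67%, interval 0.169 to 31.9%), against 13 of 31 at d7 (41.9%, interval 24.5 to 60.9%). Tfcp2l1 was the 1 locus past the size rule between EpiSCs and d7 in early S, where 3.63% of all bins were later and 4.88% earlier, and 6.16% of those early at d7 were later. The intervals of the 2 groups overlapped. Tfcp2l1 did not pass when read from the first of its 2 bins alone (-28.6 points), nor at scores of 15 to 35% (-27.8 points), where Klf4 passed as later and Nr5a2 as earlier in EpiSCs.

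Klf4 was replicated in 35 of 48 early-S cells at d0, 3 of 32 at d2, 0 of 10 at d3, 2 of 10 at d4, 2 of 14 at d5, 2 of 18 at d6 and 14 of 31 at d7. In EpiSCs it was replicated in 4 of 15. The shares at d2 to d6 were below that of d7, so this locus was lower on the way than at either end of the time course, although the intervals at d3 to d6, with at most 18 cells each, overlapped that of d7 and only that of d2 did not.

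Prdm14 was replicated in 43 of 48 early-S cells at d0, 24 of 32 at d2, 4 of 10 at d3, 6 of 10 at d4, 12 of 14 at d5, 8 of 18 at d6 and 14 of 31 at d7. In EpiSCs it was replicated in 8 of 15. Its lowest values were thus at d3, d6 and d7, with d5 close to d0. The d6 cells had the lowest mean score. By the logistic midpoint described below, which uses the score of each cell, Prdm14 was earlier at d6 (26%) than at d7 (32.5%). The difference between EpiSCs and d0 fell to -20 points, under the rule, when 15 d0 cells were matched in score.

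The nuclear receptor genes and Tbx3 were lower at d2 than at d0, with their lowest shares later, at d3 (Esrrb and Tbx3) or d6 (Nr5a2). Nr5a2 was replicated in 33 of 48 early-S cells at d0, 12 of 32 at d2, 6 of 10 at d3, 6 of 10 at d4, 5 of 14 at d5, 5 of 18 at d6 and 17 of 31 at d7, with 11 of 15 in EpiSCs. Tbx3 was replicated in 26 of 48 cells at d0, 7 of 32 at d2, 1 of 10 at d3, 6 of 10 at d4, 8 of 13 at d5, 4 of 18 at d6 and 15 of 31 at d7, with 10 of 15 in EpiSCs. Esrrb was replicated in 41 of 47 cells at d0, 15 of 32 at d2, 3 of 10 at d3, 8 of 10 at d4, 12 of 14 at d5, 10 of 18 at d6 and 26 of 31 at d7, with 13 of 15 in EpiSCs. At d7 Esrrb stood at 83.9%, against 87.2% at d0.

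Klf2 had the highest early-S share of the 8 loci at d0 and d7. It was replicated in all 48 early-S cells at d0, 19 of 32 at d2, 7 of 10 at d3, 10 of 10 at d4, 10 of 14 at d5, 17 of 18 at d6 and 30 of 31 at d7, and in 11 of 15 EpiSCs. Like Esrrb it was lower at d2 and d3 than at either end of the course.

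By the size rule, Klf5, Tfcp2l1 and Prdm14 were later at d7 than at d0 in early S, 3 of 8 loci with none earlier, beside 5% of all bins later and 6.41% earlier. Among bins at 80% or more in early S at d0, 14.7% were later at d7. EpiSCs against d0 gave 4 later loci, Klf4, Klf5, Tfcp2l1 and Prdm14, beside 5.43% of all bins later and 7.7% earlier, and 15.5% of the bins early at d0. At d2 against d0, 7 of 8 loci were later, all except Prdm14, beside 6.68% of all bins later and 3.1% earlier, and 26.5% of the bins early at d0. The median difference over the 8 loci was -40.5 points at d2, -20.8 points at d7 and -31.5 points in EpiSCs, all against d0, while the median over all bins was 0. These medians are not like for like. In early S at d0 the mean share over all bins was 26.7%, against a median of 87.4% over the 8 loci. The loci thus had more room to fall than bins of low share, and no median was taken over bins of like d0 share. In early S at d0, 5 of the 8 loci were in the class at 80% or more; Klf4 (72.9%), Nr5a2 (68.8%) and Tbx3 (54.2%) were not, so the shares of that class do not apply to them.

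Of the early-S cells, 41 of 48 at d0 came from an earlier series and 27 of 31 at d7 from the present one. State and series thus largely overlap in this comparison, and the part of the series was not tested. In present-series cells only (27 at d7 and 7 at d0), Klf5, Tfcp2l1 and Prdm14 (-30.7 points) passed as later, and so did Nr5a2 (-33.9 points). The early-S differences of Klf5, Tfcp2l1 and Prdm14 passed the rule with cells matched in score too. With 31 d0 cells matched to the d7 cells (mean scores 27.9% at d7 and 27.4% at d0), Klf5 stood at 19.4% in d7 against 87.1% in d0, Tfcp2l1 at 41.9% against 90.3%, and Prdm14 at 45.2% against 83.9%. Of the d2 early-S cells, 4 of 32 were off the mean profile. Without them Klf5 was at 0 of 28, Esrrb at 14 of 28 and Klf2 at 18 of 28. With 32 d0 cells matched in score to the d2 cells, Nr5a2 was at 37.5% in d2 against 65.6% in d0. That difference of -28.1 points was under the rule, as was that of matched cells on the profile (-25 points). Nr5a2 was thus not among the later loci at d2 once cells were matched.

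Fewer cells had all 8 loci replicated together after d0. In mid-S cells with a call at every locus, all 8 were replicated in 52 of 55 at d0, 19 of 35 at d2, 5 of 13 at d3, 9 of 18 at d4, 15 of 20 at d5, 9 of 21 at d6 and 49 of 95 at d7, and in 14 of 26 EpiSCs. The d7 share of 51.6% (interval 41.1 to 62%) lay below the d0 share of 94.5% (interval 84.9 to 98.9%) with no overlap. In early S the median cell had 7 replicated loci on d0, 3 on d2, 2 on d6 and 5 on d7, while EpiSCs had 4. No early-S cell of d2 to d6 or of the EpiSCs had all 8, while 3 of 31 at d7 and 10 of 47 at d0 did.

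The midpoint of a locus, the score at which a logistic fit places 50% of cells replicated, used all cells with scores of 5 to 95%. The median midpoint over all bins was 50.0% at d0, d7 and in EpiSCs, so lower values are earlier than most of the genome. At d0 the 8 midpoints lay between 1 (Klf2, the lowest value searched) and 23.5% (Tbx3). No d0 cell in the fit scored below 13.5%, so d0 midpoints under that value, those of Klf2 and Klf5, mean only that the locus was replicated in most of the earliest cells.

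Klf5 had a midpoint of 46.5% in EpiSCs and 46% at d7, against 6.5% at d0. In terms of rank, 46% of all bins were earlier in EpiSCs and 45.5% at d7, against 7.76% at d0. The d0 midpoint became 12% without the d0 cells off the mean profile and 10.5% with 5% of calls taken as wrong. This factor gene thus stood in the middle of the timing order in both end states. Its midpoint was 43.5% on d2, 48% on d3, 46.5% on d4, 40.5% on d5 and 52.5% on d6, so the distance from d0 was present at the first day sampled after d0.

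Tfcp2l1 had a midpoint of 43% in EpiSCs and 36.5% at d7, against 14.5% at d0. On d2 it was 21.5%, on d3 30%, on d4 22%, on d5 30.5% and on d6 39.5%. At d6 the change of state was sharp, with all cells but 1 unreplicated below and replicated above a score of 41%. Klf4 had a midpoint of 37.5% in EpiSCs and 33% at d7, against 18% at d0, with its highest values of 44% at d2 and 50.5% at d3.

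Esrrb had a midpoint of 10.5% in EpiSCs and 4% at d7, against 15.5% at d0, after 25.5% at d2 and 43% at d3. Its d7 value became 13% without the 8 d7 cells off the mean profile, so that the shift from d0 no longer reached 10 points. Nr5a2 and Tbx3 stayed within 10 points of d0 in EpiSCs and at d7. Prdm14 had a midpoint of 25.0% in EpiSCs and 32.5% at d7, against 16% at d0.

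Counting shifts of 10 points or more, 6 loci moved between d7 and d0, of which 5 were later (Klf4, Klf2, Klf5, Tfcp2l1 and Prdm14) and Esrrb was earlier, beside 21.8% of all bins later and 23.1% earlier. Among the earliest 25% of bins at d0, 36.5% were later and 5.73% earlier at d7. The Klf2 shift rests on the d0 value at the lower end of the search. That of Esrrb rests on a d7 value below 6.41%, the lowest d7 score in the fit. EpiSCs against d0 gave 4 later loci (Klf4, Klf2, Klf5 and Tfcp2l1), beside 19.5% of all bins later and 23.9% earlier, and 31.3% later and 9.76% earlier among the earliest 25% at d0. EpiSCs against d7 gave 0, beside 16.5% later and 19.7% earlier, and 15.9% later and 11.7% earlier among the earliest 25% at d7. At d2 against d0, 5 loci were later (Klf4, Klf2, Klf5, Esrrb and Tbx3), beside 17.9% later and 17.1% earlier, and 35.2% later and 4.67% earlier among the earliest 25%.

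**Figure D2:**
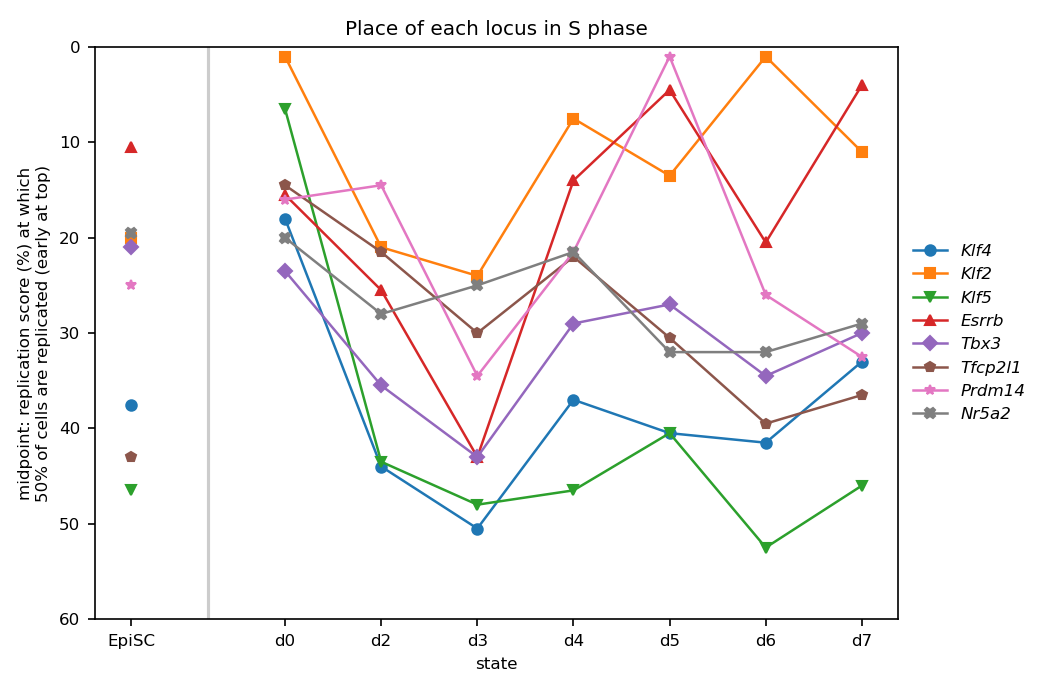
Midpoint of each locus (vertical axis, replication score in %, early at the top) by state (horizontal axis). Klf5 lay at 6.5% at d0 and between 40.5 and 52.5% in every later state; points at 1 are at the lowest value searched.

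Within single cells the order of the loci can be read directly, from cells in which exactly 1 of a pair is replicated. At d0 Klf5 was in no pair clearly behind its partner. At d7 it followed all 7 partners, with intervals that left out 50%. In 57 d7 cells where Klf5 and Esrrb differed, Klf5 was the replicated one in 1, against 4 of 7 such cells at d0. With Klf4 as partner, Klf5 was the replicated one in 12 of 50 such cells at d7, against 10 of 13 at d0. At d0 the intervals of both pairs held 50% (46.2 to 95% with Klf4 and 18.4 to 90.1% with Esrrb). In EpiSCs, Klf5 was replicated alone in 3 of 13 cells that differed from Klf4, with an interval of 5.04 to 53.8% that also held 50%. It was replicated alone in 0 of 21 EpiSCs that differed from Esrrb.

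Tfcp2l1 also changed place against its partners. Where Tfcp2l1 and Nr5a2 differed, Tfcp2l1 was the replicated one in 0 of 14 EpiSCs and 7 of 26 d7 cells, against 14 of 17 d0 cells. Summed over all 7 partners, Klf2 was the replicated one in 73.7% of discordant pairs in EpiSCs and 93.8% at d7, against 90.8% at d0. Esrrb was the replicated one in 96.3% in EpiSCs and 93.8% at d7, against 63.3% at d0. These pairs share cells and are not independent of one another.

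**Figure D3:**
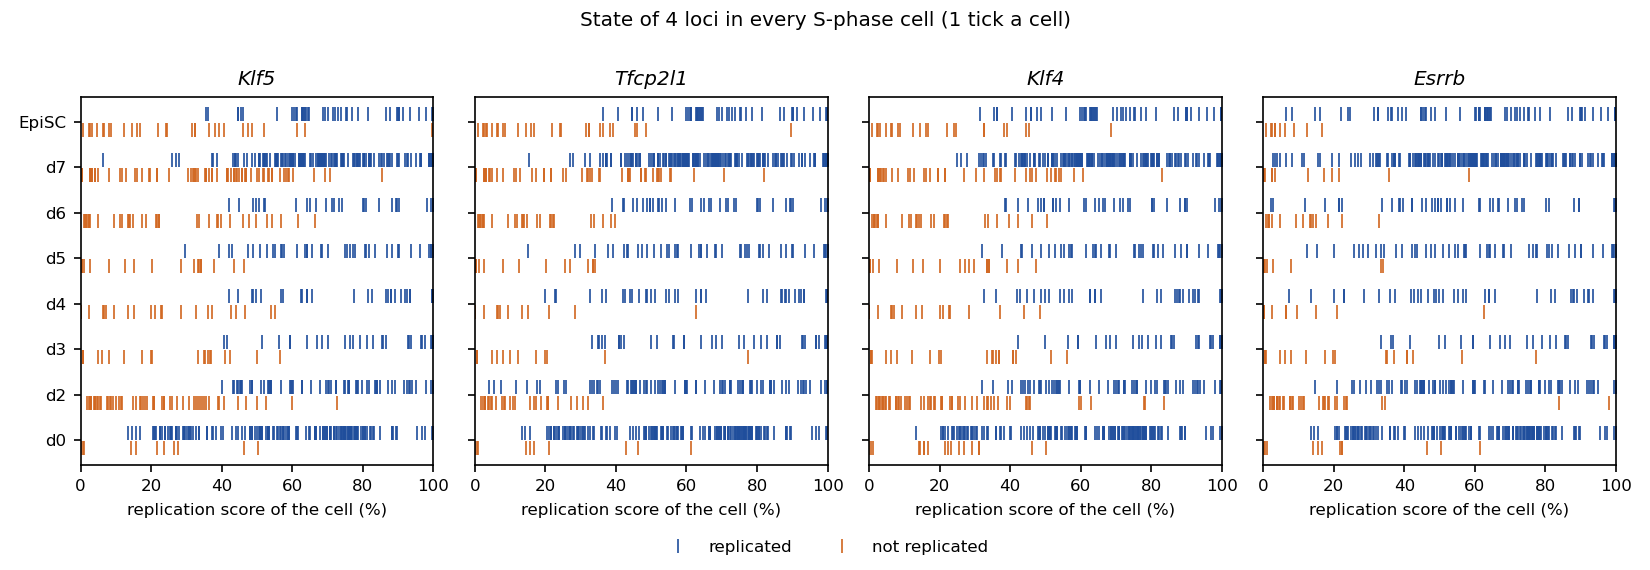
Every S-phase cell as 1 tick at its replication score (horizontal axis, %), by state (rows), raised where the locus was called replicated and lowered where it was not, for 4 loci. At d7 unreplicated Klf5 calls reach well into mid S, while unreplicated Esrrb calls lie almost wholly at low scores.

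Timing was then followed into the flanks, 5 bins on either side of the gene. In mid S, 13 of the 80 flank bins and none of the 12 gene bins were later at d7 than at d0 by 0.3 or more, beside 7.71% of all bins and 9.74% of those early at d0. They belonged to 3 loci: 10 of the 10 flank bins of Klf5, 2 on the higher-coordinate side of Klf4 and 1 at the outer lower-coordinate edge of Tfcp2l1. EpiSCs against d0 gave 10 later flank bins of 80, 7 at Klf5 and 3 at Klf4, beside 6.34% of all bins and 6.74% of those early at d0. EpiSCs against d7 gave none later and 1 earlier, the outermost bin on the lower-coordinate side of Tfcp2l1, at 84.6% in EpiSCs and 41.6% at d7.

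In EpiSCs and at d7, Klf5 was in the highest bin of its window. At d7 the gene bin was at 69.3%, the outermost bin on the lower-coordinate side, towards Pibf1, at 37.6% and that on the other side, towards Klf12, at 43.6%. At d0 the same 3 bins were at 96.6%, 84.7% and 94.9%. At d7 all bins of the window were thus lower than at d0, the gene bin least. At d6 the window had another shape, with 57.1% at the gene, a mean of 74.3% over the lower-coordinate flank and of 37.1% over the other.

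Klf4 stood on a slope. Away from the gene on the higher-coordinate side, which is upstream of this minus-strand gene, the outermost bin was replicated in 3.85% of EpiSCs and 32% of d7 cells, against 59.3% of d0 cells. At d2 it was at 2.86% and at d3 at 0%. The opposite outermost bin stayed at 100% in EpiSCs and 92% at d7, against 94.9% at d0. The distance to the first bin under 50% on the upstream side was 80 kb at d2 and d3, 160 kb at d4, 240 kb at d5 and d6, and 320 kb at d7, so the slope lay closest to the gene at d2 and d3. No bin of this flank was under 50% at d0.

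Tbx3 and Nr5a2 showed later flanks that were largely gone or reduced by d7. On the lower-coordinate side of Tbx3, towards Med13l, the mean over 5 bins was 93.0% on d0, 52% on d2, 43.1% on d3, 80.0% on d4, 94% on d5, 93.3% on d6 and 90.7% on d7. On the higher-coordinate side of Nr5a2, which is upstream of this minus-strand gene, the outermost bin was at 86.4% on d0, 22.9% on d2, 7.69% on d3, 50.0% on d4, 15% on d5, 52.4% on d6 and 69.3% on d7. The gene bins of Nr5a2 stayed at or above 89.1% throughout. At Tfcp2l1 the lower-coordinate edge was at 98.3% on d0, 82.9% on d2, 45% on d5, 47.6% on d6 and 41.6% on d7.

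In mid S, Klf2 and Prdm14 had flat windows in which no bin passed the rule against d0 on any day or in EpiSCs. Both were near their ceiling there. Read over the whole window in early S, Prdm14 was replicated in 38.7% of d7 cells against 87.5% of d0 cells. The Klf2 window was at 93.5% against 100%. The mid-S bins of the Esrrb window passed the rule against d0 only at d3, in 4 bins and 13 cells. At d7 the lowest and highest bins of the Esrrb window were at 96.0 and 99.0%, against 93.0 and 94.7% at d0.

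**Figure D4:**
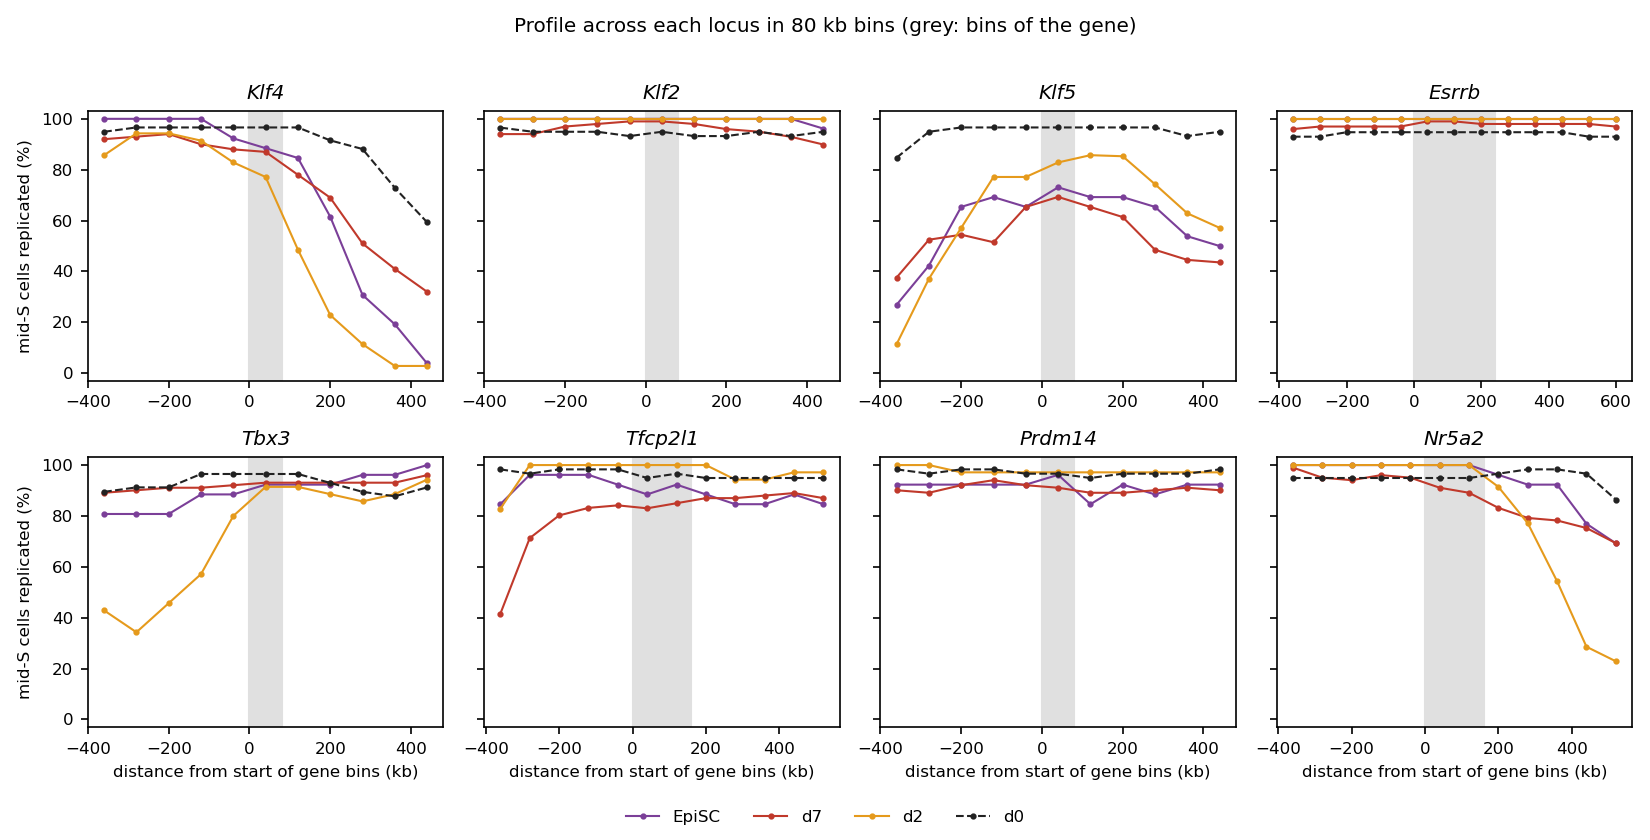
Share of mid-S cells replicated (vertical axis, %) in each 80 kb bin across the 8 loci, by distance from the start of the gene bins (horizontal axis, kb), for EpiSC, d7, d2 and d0. Klf5 was lowered across its whole window, Klf4 and Nr5a2 on 1 side, Tbx3 on 1 side at d2 among the states drawn, Tfcp2l1 at its lower-coordinate edge at d7, and Klf2, Esrrb and Prdm14 stayed near the top.

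Over the 8 states, the mid-S shares of Klf2 and Prdm14 were the most alike, with a root mean square difference of 3.72 points, followed by Tfcp2l1 and Nr5a2 with 5.29 points. Klf5 was farthest from its closest partner, Klf4, at 14.7 points. These distances describe 8 values each from cells that the loci share. Most of these mid-S shares were near their ceiling, so a small distance does not mean like timing over S phase. In early S at d7, Klf2 was at 96.8% and Prdm14 at 45.2%. In early-S EpiSCs, Tfcp2l1 was at 6.67% and Nr5a2 at 73.3%.

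The d7 cells were not uniform across the authors' 4 mappability controls for these cells. Klf4 was replicated in 4 of 11 mid-S d7 cells of one control, against 59 of 62, 19 of 22 and 5 of 5 in those of the other controls. Tfcp2l1 was replicated in 11 of 22 d7 cells of one control, against 58 of 63, 10 of 10 and 4 of 5 in the others. Klf5 was replicated in 45 of 63, 16 of 22, 7 of 11 and 2 of 5 d7 cells of the 4 controls. At d0, Klf5 was replicated in 33 of 33, 18 of 18 and 5 of 5 cells of 3 controls and in 1 of 3 of the remaining one. The part of the control in the Klf4, Klf5 and Tfcp2l1 values was not tested. Of the mid-S cells, 35 of 101 at d7 and 50 of 59 at d0 came from an earlier series. In those cells Klf5 was at 26 of 35 in d7 (74.3%) against 50 of 50 in d0 (100%). In the remaining cells it was at 44 of 66 in d7 against 7 of 9 in d0. The difference was under the rule in each series taken alone. The 3 d0 cells off the mean profile were among the 9 remaining d0 cells.

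In G1 cells, in which nothing should be replicated, 10 of 570 calls at the 8 loci were replicated, in 8 of 72 cells. Klf2 and Esrrb were each called in 3 of 72 and Prdm14 in 3 of 71. Klf4, Klf5, Tbx3 and Nr5a2 were called in none, which allows a share of up to 4.29% for Klf5 (0 of 70 cells).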

How the data were processed

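The deposited score per 80 kb bin takes the values 1 (replicated), -1 (unreplicated) and 0 (no data); per the file headers, each cell was corrected with a merged G1 control. The deposited replication score is a fraction; recomputed here in percent it differed by at most 5.00e-08 points. The submitters' processing notes name cutadapt, BWA 0.7.10-r789, Picard and mm9; order and settings are not given in the sources used here. Read depth was not used; at least 26813 bins were called in every mid-S cell.

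States were read from titles. The 7 columns of G1 cells with conflicting day labels were not used. Gene positions were taken as listed on mm9 for the loci, without an annotation of that build. A cell counted as replicated at a gene when more than 50% of its called gene bins were. Shares, differences of 0.3 or more, and a logistic fit with 1% of calls taken as wrong were computed for all bins called in at least 50% of cells, and read for the 8 loci, all of which are named. Fits and the size rule were tested on simulated data. The simulated midpoints did not go as low as those fitted for Klf2 and Klf5 at d0 or Esrrb at d7, so they say nothing about such values. The loci and rules were chosen with earlier results of these data known. Alternatives covered the score range, matched scores, bins, thresholds, series origin and doubtful cells. Python 3.11.15, numpy 2.4.6, pandas 2.3.3, scipy 1.17.1 and matplotlib 3.10.9 were used.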

Additional observations from a re-analysis of the deposited data

How the results depend on the processing

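In mid S the count of loci past the rule between d7 and d0 was 0, and became 1 (Klf5, later) with scores of 30 to 80%, with matched scores, over the whole window, without the cells off the mean profile and with a rule of 0.2. It became 1 with cells of the present series only, where Esrrb was higher at d7 (9 d0 cells), and 6 by midpoint. Between EpiSCs and d0 it was 0, became 1 (Klf5) over the whole window and with a rule of 0.2, 2 with the present series only (Esrrb and Nr5a2, higher in EpiSCs) and 4 by midpoint. Between d2 and d0 it was 0, 3 with the present series only (Esrrb, Tfcp2l1 and Nr5a2, higher at d2) and 5 by midpoint. The 9 present-series d0 cells include the 3 off the mean profile, and the cause was not tested. In early S the count for EpiSCs against d7 was 1, and became 2 with scores of 15 to 35% (Klf4 later and Nr5a2 earlier in EpiSCs, Tfcp2l1 lost), 2 with scores of 5 to 40% (Klf2 and Tfcp2l1, later) and 2 with a rule of 0.2 (Klf2 and Tfcp2l1, later), and 0 with the first bin only and with a rule of 0.4. The early-S counts of the other 3 comparisons stayed within 1.5 times. Of single locus values, 467 shares moved by less than their interval and 85 by more; 183 midpoints were alike and 9 moved. No difference of 0.3 or more changed sign, but smaller ones did. Tbx3 in early S, -5.78 points between d7 and d0, was 11.4 over the whole window and 1.59 in the present series. In mid S, Klf4, Tbx3, Tfcp2l1, Prdm14 and Nr5a2 were higher at d7 than at d0 in the present series. Leaving out a replicate was not possible with 1 sample a state. No paired analysis was possible because the replicate numbers in the labels only name cells. The early-S cells numbered only 10 to 18 at d3 to d6.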
